A study of Homo sapiens with 5 samples.

Results

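The HOX cluster genes encode homeodomain transcription factors, and 38 of the human genes were considered here, chosen by name as members of the HOXA, HOXB, HOXC and HOXD clusters. Of these 38 genes, 27 had a probe that names no other gene and could be given values: all 10 listed genes of the HOXB cluster, all 9 of HOXD, 7 of the 9 of HOXC and 1 of the 10 listed of HOXA, HOXA2. HOXC4 and HOXC6 were named only on a probe that they share with each other or with HOXC5, and the 9 other HOXA genes had no probe in the annotation used, so these 11 genes were not analysed here. The whole series held 17958 genes with such a probe in the first of its value tables and 18417 in the other.

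RNA came from MCF12A cells, a human mammary epithelial line that forms no tumours, cultured in medium with horse serum, epidermal growth factor, hydrocortisone, insulin and cholera toxin, and was hybridised to 5 Affymetrix Gene ST arrays. The first table held 1 untreated culture, 1 culture after 4 weeks in 2.5% ethanol and 1 after 4 weeks in 1% acetaldehyde, the first product of ethanol oxidation. The second held cells of a single clone picked from soft agar, in which only cells able to divide without anchorage form colonies, with 4 weeks of ethanol, and an unexposed control. The descriptions give the clone's ethanol as 2.5% in one place and 2.5 mM in another, and they place it before the selection in one and after it in another. The control carries a soft agar tag too, and whether it came from the same clone is not stated. The clone and its control sit on an array design that the protocol names for exposures of 1 week, which goes against the 4 weeks of the clone's label. Ethanol and selection cannot be told apart in this pair. Each group was a single array. Spread between cultures is therefore unknown, no p-value is given, and no difference below has a replicate check.

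HOX genes lie in clusters in which the order of the genes along the chromosome matches the order in which they act along the body axis, from the paralogs numbered 1 near the head to those numbered 13 at the tail end. Their proteins bind DNA together with cofactors of the PBX and MEIS families. Polycomb proteins keep the clusters silent, Trithorax proteins keep them active, and retinoic acid switches them on in development. In the breast, HOX genes take part in the growth and branching of the gland, and adult epithelium keeps a partial, region-specific pattern of them.

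Sequences are shown for 4 promoters of the HOXD cluster. As deposited, all 9 of its genes were lower in the soft agar clone than in its control. With centring, with quantile normalisation again and with a lowess correction for brightness, 8 of the 9 were lower. The cluster was thus picked for printing after its values were seen. Of the 9, 6 were past the intensity floor defined below, and 50.8% of all genes past it were lower as deposited. HOXD3, HOXD10 and HOXD11 were under it in both arrays, so raising dim values to the floor leaves them no difference. Each sequence is the 250 bases before a gene's start in RefSeq's table for human GRCh38.p14, written 5′ to 3′, with every CpG dinucleotide in capitals. HOXD8, HOXD12 and HOXD1 were the HOXD genes furthest below control in the clone as deposited, and HOXD11 the nearest to it. Under quantile normalisation again HOXD12, at -0.52, came after HOXD1, HOXD13 and HOXD9.
HOXD8 promoter, chr2:176129455-176129704, plus strand: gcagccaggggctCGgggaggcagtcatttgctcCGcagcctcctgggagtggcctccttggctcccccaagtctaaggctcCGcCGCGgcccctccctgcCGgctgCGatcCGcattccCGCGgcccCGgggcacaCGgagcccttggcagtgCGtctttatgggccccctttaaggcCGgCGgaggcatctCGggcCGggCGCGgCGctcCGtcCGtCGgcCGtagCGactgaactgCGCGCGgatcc
HOXD12 promoter, chr2:176099545-176099794, plus strand: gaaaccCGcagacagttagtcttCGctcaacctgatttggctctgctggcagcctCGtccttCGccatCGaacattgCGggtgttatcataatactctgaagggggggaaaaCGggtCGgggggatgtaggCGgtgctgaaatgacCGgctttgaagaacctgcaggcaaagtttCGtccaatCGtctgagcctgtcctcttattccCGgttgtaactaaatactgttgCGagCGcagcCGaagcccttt
HOXD1 promoter, chr2:176188418-176188667, plus strand: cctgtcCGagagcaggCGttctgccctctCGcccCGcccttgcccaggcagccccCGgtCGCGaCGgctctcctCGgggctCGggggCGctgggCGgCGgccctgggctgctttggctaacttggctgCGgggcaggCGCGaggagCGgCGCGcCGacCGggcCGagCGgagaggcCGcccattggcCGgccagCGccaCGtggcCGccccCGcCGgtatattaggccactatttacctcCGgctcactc
HOXD11 promoter, chr2:176107030-176107279, plus strand: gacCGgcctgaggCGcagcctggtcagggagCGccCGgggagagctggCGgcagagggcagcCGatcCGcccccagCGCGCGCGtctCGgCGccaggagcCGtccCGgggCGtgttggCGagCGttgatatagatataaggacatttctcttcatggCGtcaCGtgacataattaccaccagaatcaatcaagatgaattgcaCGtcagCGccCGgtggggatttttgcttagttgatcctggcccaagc
These windows held 28, 16, 31 and 23 CpG dinucleotides, in the order printed. Promoters were found in the table for 11 of the 27 measured genes, with a median of 21 CpG and a range of 4 to 31, against a median of 11 over 35093 promoters. HOXD4 had the 4 and HOXD1 the 31. The homeodomain core motif TAAT, searched on both strands, was present in 9 of the 11 windows, or 81.8%, and in 47.5% of all windows of that length. HOXD8 and HOXD13 were those without it. The motif TGTTTAC was in 1 of the 11, that of HOXC5, against 2.98% of all. GAGAGAG and CACCTG were in 0 of the 11, against 7.74% and 17.5% of all. These matches describe letters in a window and nothing more.

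In the untreated culture the intensities of the measured HOX genes ran from 29.3 for HOXD10 to 204 for HOXC13 with a median of 72.2. An intensity floor was set at the median of each table, 70.2 for the untreated and exposed cultures and 92 for the clone and its control, and it is not a measured background. Of the 27 genes, 15, 14 and 13 reached it in the untreated, ethanol and acetaldehyde cultures, against 61.6%, 61.6% and 61.9% of all genes. In the clone's control 18 of 27 reached it and in the clone 16, against 60.8% and 60.6% of all genes. Closest to the floor in the untreated culture were HOXD1 and HOXD11, inside at 71.9 and 72.2, and HOXB3, outside at 59.3. With total RNA from whole cultures, fewer cells with a transcript and less transcript per cell cannot be told apart.

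In all, 8 genes reached the floor in all 5 arrays. They were HOXB2, HOXB4, HOXB9, HOXC10, HOXC13, HOXD4, HOXD9 and HOXD13, so that every cluster with more than 1 measured gene had some of them. HOXB8, HOXC11, HOXD3 and HOXD10 reached it in no array. The other 15 genes reached it in some arrays, among them HOXB3, HOXB5, HOXB6, HOXB7, HOXB13, HOXC12, HOXD8 and HOXD12, which did so only in arrays of the clone's table. Levels in the tables were not compared, because the tables come from different array designs and were treated as normalised separately.

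**Figure D1:**
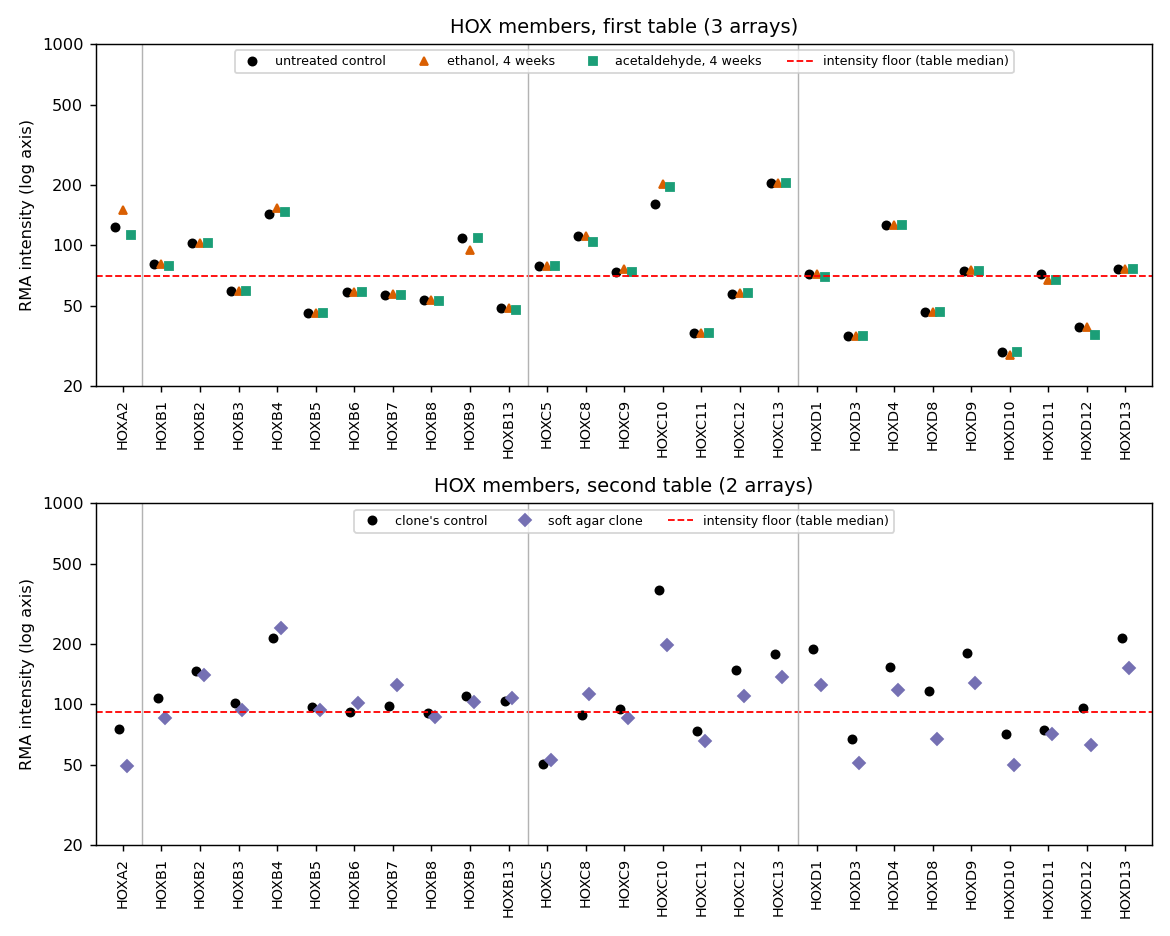
RMA intensity (log axis) of the 27 measured HOX genes, in cluster order and separated by grey lines between clusters, on the 3 arrays of the first table (top) and the 2 of the second (bottom). Each point is 1 array and the dashed line is the floor, 70.2 and 92; in the top panel the points of most genes coincide, whereas in the bottom panel the HOXD genes of the clone lie under those of its control.

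The first comparison asked whether HOX genes differ after 4 weeks in ethanol. They did not differ by 2-fold. Of the 15 genes past the floor, 0 were at least 2-fold higher and 0 lower, beside 2.63% and 2.44% of 11264 genes. At 1.5-fold the members still numbered 0 each way, beside 5.3% and 5.11% of genes. The median log2 difference was 0 over these members and 0 over all genes. With so few genes differing in the background, a count of 0 among 15 is no result about the HOX genes.

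Many HOX genes had the same value to the last digit. In ethanol and control 7 of the 15 genes past the floor were equal within 1e-06 on the log2 scale, 6 were higher and 2 lower. Of all 11264 genes past the floor 30.7% were equal and 35.1% lower, and 43.7% of those in the members' range of brightness were equal. Of the 27 measured genes, 10 (37.0%) were equal in all 3 arrays: HOXB3, HOXB5, HOXB6, HOXC5, HOXC11, HOXC13, HOXD3, HOXD4, HOXD8 and HOXD13. Over all probes that share was 38.4%. What made values equal across arrays was not tested, so an equality here does not measure how alike the cultures were.

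HOXC10, a gene of the lumbar part of the body axis and hindlimb, had the largest difference of any member in ethanol. Its intensity was 161 in the untreated culture, 202 in ethanol and 195 in acetaldehyde, log2 differences of 0.33 and 0.28. Both exposed cultures were above the untreated one, which is the same array in both differences. HOXA2, which patterns the hindbrain and the face, was at 123 untreated, 150 in ethanol and 112 in acetaldehyde. It was therefore above control in ethanol by 0.29 and below it in acetaldehyde by -0.13. HOXB4, known for its part in blood stem cells, was at 143, 153 and 147. HOXB9, one of the paralogs 9 needed for the mammary gland in pregnancy, was at 108 in control and in acetaldehyde and at 94.9 in ethanol, a log2 difference of -0.19, the lowest among the members. HOXD11, a gene of the forearm and kidney, was at 72.2 untreated and 67.0 in both exposed cultures, which puts it below the floor there. All other measured members were within 0.05 of the untreated culture in ethanol on the log2 scale.

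By cluster, ethanol had 3 HOXB genes above control, 2 below and 5 equal, 3 HOXC genes above and 4 equal, and 1 HOXD gene above, 2 below and 6 equal. By position, the 12 measured paralogs 9 to 13 held 4 above, 4 below and 4 equal, and the 9 paralogs 4 to 8 held 2 above and 7 equal. Neither clusters nor positions had a median off 0, apart from HOXA with its single gene.

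In acetaldehyde 0 of 15 genes past the floor were at least 2-fold higher and 0 lower, beside 1.03% and 0.0536% of 11194 genes. At 1.5-fold the members were again 0 each way, beside 2.16% and 0.411%. Of the 15, 7 were equal to the untreated culture, 2 higher and 6 lower, and the median was 0. Over all genes past the floor 37.9% were equal and 31.9% lower, and 52.9% of those in the members' range of brightness were equal. Besides HOXC10 and HOXA2, the values furthest from control were those of HOXD12, a limb gene, at 35.6 against 39.2 and under the floor in both, of HOXD11, given above, and of HOXC8, a gene of the thoracic region, at 104 against 111. Of the 9 HOXD genes 0 were above control, 4 below and 5 equal, with log2 differences from -0.14 to 0. Set directly against ethanol, acetaldehyde had 0 of 14 members at least 2-fold higher and 0 lower, beside 1.85% and 0.526% of 11221 genes. At 1.5-fold the members were 0 each way, beside 3.78% and 2.22%. Of the 14, 1 was higher, 9 (64.3%) were lower and 4 equal, with a median of -0.03, and 33.5% of all genes were lower. HOXA2 differed most, at 112 in acetaldehyde and 150 in ethanol, a log2 difference of -0.42, and HOXB9 was 0.19 higher in acetaldehyde.

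The clone picked from soft agar was then compared with its control. No HOX gene reached 2-fold here either, although many other genes did. Of the 20 members past the floor, 0 were at least 2-fold higher and 0 lower, beside 14.7% and 5.83% of 12262 genes. At 1.5-fold 0 were higher and 4 lower, beside 25.6% and 15.2%. The 4 were HOXC10, HOXD8, HOXD12 and HOXD1. That count depended on the scaling: it was 2 with centring and with the lowess correction (HOXC10 and HOXD8), 3 with quantile normalisation again, without HOXD12, and 2 where values under the floor were raised to it (HOXC10 and HOXD1). The share below control at any size was 15 of 20 members, or 75%, against 50.8% of all genes past the floor. Medians on the log2 scale were -0.24 over these members, -0.02 over all genes past the floor and -0.17 over all probes. Centred on that last value, 10 of the 20 were below control. The lowess correction turned the sign of 5 of the 20, but quantile normalisation again turned only 1. The direction of the members as a whole thus depended on which scaling was used.

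**Figure D2:**
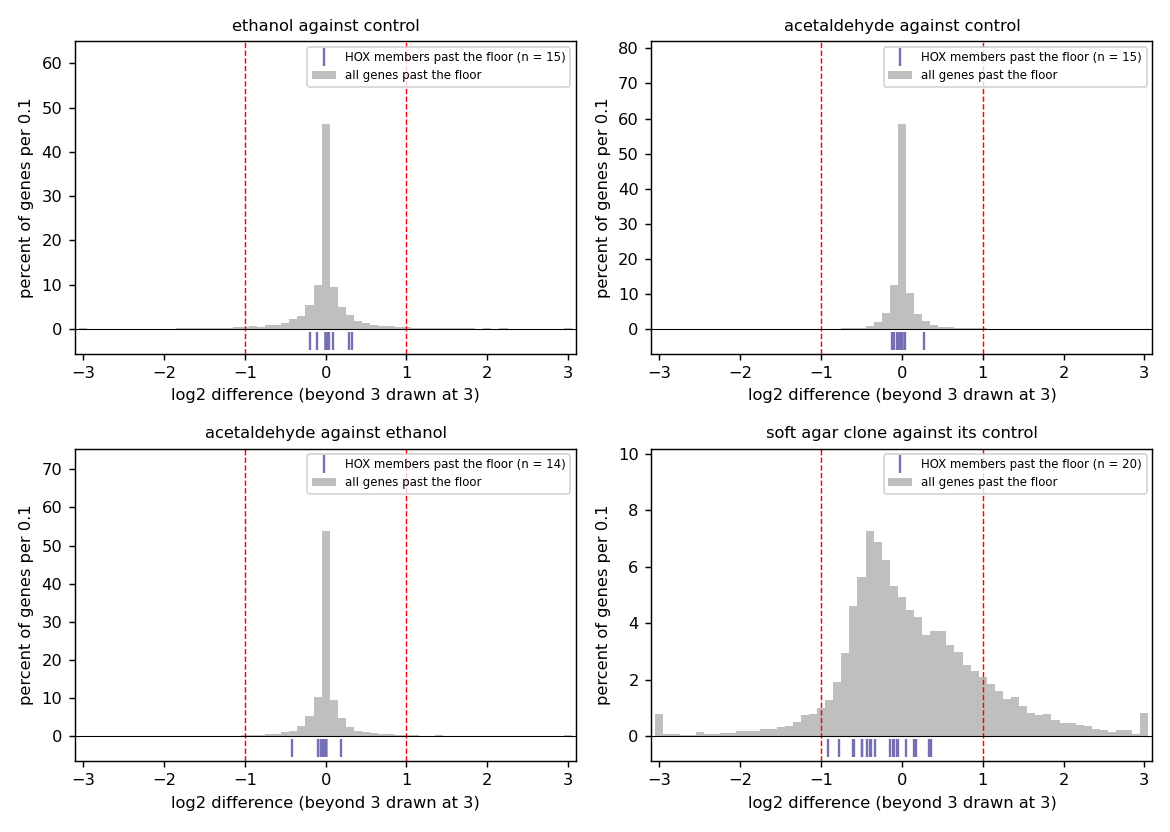
Distribution of log2 differences of all genes past the floor (grey bars, percent of genes per bin of 0.1, values beyond 3 drawn at 3) in the 4 comparisons, with each HOX member past the floor as a purple tick and 2-fold as dashed lines. All ticks lie inside the 2-fold lines; in the clone they span -0.92 to 0.36 on a much wider distribution.

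HOXC10 was furthest below control. Its intensity was 372 in the clone's control, the brightest HOX value of that table, and 197 in the clone, a log2 difference of -0.92 or 1.89-fold. With the arrays quantile-normalised again it was -1.02, past 2-fold, and with centring -0.75. The gene thus stood above control in ethanol and below control in the clone, in comparisons that share no array. Differences between those comparisons were not tested. A further 2 HOXC genes at the posterior end were below control, HOXC13, which drives keratin genes of hair and nail, at 136 against 178, and its neighbour HOXC12 at 110 against 148. HOXC9 was at 85.4 against 94.6 and HOXC11 at 65.8 against 74.0. HOXC8 was at 113 against 88.2 in the control, the largest difference upward of any member at 0.36, and HOXC5 was under the floor in both arrays, at 52.6 and 50.3.

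All 9 HOXD genes, which include the paralogs that shape the limb and digits, were lower in the clone than in its control as deposited, with a median log2 difference of -0.49. The 6 of them past the floor were all lower, with a median of -0.54. Beside those 6 stand 50.8% lower of all genes past the floor, and 54.7% of those in the members' range of brightness. The other homeobox genes past the floor had a median of -0.42, so a median below 0 was not particular to HOXD. With centring, with quantile normalisation again and with a lowess correction for brightness 8 of the 9 HOXD genes were lower, with medians of -0.33, -0.52 and -0.38, and HOXD11 was above 0 each time. HOXD8, whose promoter held 28 CpG, was at 116 in the control and 67.5 in the clone, -0.78 on the log2 scale. HOXD1, at the anterior end, was at 188 and 124, and HOXD12 at 95.9 and 63.1. HOXD13, at the other end of the cluster, was at 213 and 151, and HOXD9 at 179 and 128. The remaining HOXD genes were HOXD4 at 153 and 118, HOXD10 at 71.4 and 50.01, HOXD3 at 67.3 and 51.0, and HOXD11 at 74.9 and 71.2, the last 3 under the floor in both arrays. Genes below control thus lay along the whole cluster, from paralog 1 to paralog 13, and each difference was under 2-fold. HOXD8 and HOXD12 were under the floor in the clone, and with dim values raised to it their differences were -0.34 and -0.06. Among all genes past the floor, HOXD8 sat at percentile 8.69, HOXD12 and HOXD1 at 14.3 and 14.7, and HOXD13 and HOXD9 at 20.2, so values as low were common in the clone.

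HOXB genes lay on both sides of control. Of 10, 4 were higher and 6 lower as deposited with a median of -0.06, but 9 were higher with centring and with the lowess correction, and 5 with quantile normalisation again. HOXB7, a gene studied in breast tumours, was at 125 in the clone and 98.7 in its control, and HOXB4 at 240 and 214. HOXB6 was at 102 and 91.5. HOXB1, the most anterior gene of the cluster, was lowest relative to control at 85.3 and 108. HOXB2, HOXB3, HOXB5, HOXB8, HOXB9 and HOXB13, the last a gene of the prostate and tail end, had log2 differences from -0.12 to 0.05. HOXA2, the only measured gene of its cluster, was under the floor in both arrays at 49.5 and 75.1.

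The members were also counted by position along the body axis, which overlaps with cluster. HOXD4 and HOXD8 lie in the central group, at -0.38 and -0.78. HOXB2, HOXB3, HOXB9 and HOXB13 lie in the outer groups, from -0.12 to 0.05, as does HOXB1 at -0.33. Which of position and cluster goes with the values was not tested. All 6 measured paralogs 1 to 3 and 11 of 12 paralogs 9 to 13 were below control in the clone, with medians of -0.37 and -0.41. Of the 9 paralogs 4 to 8, 5 were above and 4 below, with a median of 0.06. Over all probes the median was -0.17, and 4 of the 6, 8 of the 12 and 2 of the 9 were below that.

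**Figure D3:**
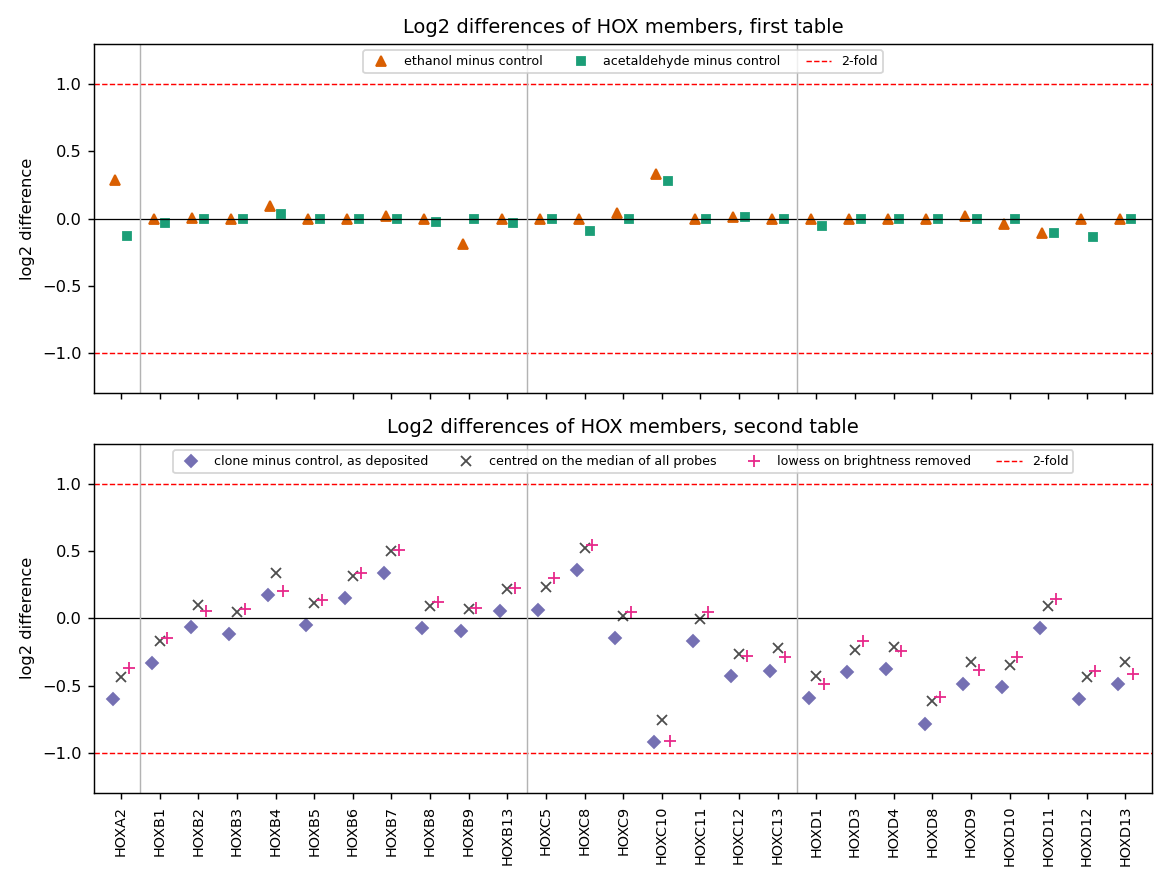
Log2 differences of the 27 measured HOX genes in cluster order, for ethanol and acetaldehyde against the untreated culture (top) and for the clone against its control (bottom), where the deposited values, the values centred on all probes and those with a lowess correction are shown. Dashed lines mark 2-fold; HOXC10 at -0.92 is the closest to them as deposited, and the HOXD genes lie below 0 as deposited, with HOXD11 above 0 once centred or corrected, while most HOXB genes lie above 0 once centred.

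The clusters also carry non-coding RNAs. Of 27 symbols listed for them, 6 had a probe of their own. In the first table all 6 were under the floor, from 9.94 for MIR10A to 56.0 for HOXB-AS3 in the untreated culture. In the second, HOXB-AS3, an RNA read from the opposite strand in the HOXB cluster, was at 169 in the control and 122 in the clone, and MIR196A1 was at 127 and 88.1. These probes see precursor or overlapping transcripts and not mature microRNAs, and whether signal from a HOX gene on the other strand enters them was not tested. These microRNA sequences show how the clusters share such genes, with the seed (bases 2 to 8) in capitals, from RefSeq's table.
hsa-miR-196a-5p, chr17:48632532-48632553, minus strand: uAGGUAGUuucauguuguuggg
hsa-miR-196a-5p, chr12:53991762-53991783, plus strand: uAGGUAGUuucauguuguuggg
MIR196A1 in the HOXB cluster and MIR196A2 in the HOXC cluster yield the same mature sequence, which is known to pair with HOXB8 and HOXC8 messages. In the clone MIR196A2 was under the floor in both arrays, at 34.7 against 46.5, as were MIR10A at 6.95 in both arrays and HOXA-AS2 at 20.8 against 34.1. HOXB8 was at 86.1 against 90.6 there, and HOXC8 as given above.

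Partner and regulator genes were taken from 7 further lists. Among HOX cofactors, 0 of 6 in ethanol and 0 of 7 in acetaldehyde reached 2-fold. Over all genes 2.63% were higher and 2.44% lower in ethanol, and 1.03% and 0.0536% in acetaldehyde. In the clone 1 of 7 was past 2-fold upward as measured, though not against the floor, and 1 was at least 2-fold lower. Beside these stand 14.7% and 5.83% of all genes, so with so few cofactors the counts are no result about them. MEIS1, which binds DNA beside HOX proteins and draws in activators, was under the floor at 45.2 in the control and at 124 in the clone, at least 1.35-fold higher against the floor. PBX3, a partner of the anterior and central HOX proteins, was 2.15-fold lower, at 153 against 328. MEIS2 was at 115 against 59.2, at least 1.25-fold higher.

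Of 25 Polycomb genes 0 reached 2-fold in ethanol or acetaldehyde. The one furthest from control in ethanol was JARID2, a subunit that helps bring the methylating complex to its targets, at 175 against 334. In the clone 3 were at least 2-fold higher and 2 lower, with a median of 0.30. SUZ12, a core subunit of that complex, was at 708 against 311 CBX6, a reader of its mark, at 299 against 141, and RBBP7, a histone-binding subunit, at 1629 against 793, whereas JARID2 was at 243 against 565 and PHF1, an accessory subunit, at 235 against 510. JARID2 was below control in both pairs of arrays. Of 16 Trithorax and demethylase genes past the floor 0 reached 2-fold in ethanol or acetaldehyde and 1 was higher in the clone, PSIP1, which ties the activating complex to chromatin, at 601 against 284. Beside these stand the shares of all genes given above, 14.7% higher and 5.83% lower in the clone. In ethanol they were 2.63% and 2.44%, and in acetaldehyde 1.03% and 0.0536%.

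Some retinoic acid genes passed 2-fold. In ethanol 1 of 12 was at least 2-fold higher and 2 lower, beside 2.63% and 2.44% of all genes. DHRS3, which turns retinal back to retinol, was 3.35-fold lower at 103 against 346, and CRABP2, which carries retinoic acid to its receptors, 3.12-fold lower at 82.9 against 259. TGM2, a transglutaminase gene induced by retinoic acid among other signals, was 2.50-fold higher. In acetaldehyde 0 of 12 reached 2-fold, beside 1.03% of all genes higher and 0.0536% lower. In the clone 2 were higher and 3 lower, beside 14.7% and 5.83% of all genes. CRABP2 was at 57.2 against 995, at least 10.8-fold lower since the clone's value lay below the floor, DHRS3 was 2.98-fold lower and the receptor gene RARG 2.79-fold lower, while TGM2 was 11.04-fold and STRA6, a receptor for retinol uptake, 3.02-fold higher. TGM2, DHRS3 and CRABP2 thus stood on the same side of control in ethanol and in the clone, but not every gene of the list did. RDH10, next in size in ethanol, was at 371 against 720 there and at 351 against 250 in the clone. Of 6 direct regulators of HOX clusters past the floor 0 reached 2-fold in the first table. In the clone BPTF, a chromatin remodelling subunit, was 2.58-fold higher, beside 14.7% of all genes at least 2-fold higher.

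Genes that flank the clusters gave a check of the surroundings. In ethanol 0 of 22 past the floor reached 2-fold, beside 2.63% higher and 2.44% lower over all genes. In the clone 1 of 21 did, beside 14.7% higher and 5.83% lower over all genes. It was CBX5, the heterochromatin protein gene beyond the HOXC cluster, at 1821 against 432. SKAP2, next to the HOXA cluster, was at 760 against 499 in ethanol and at 229 against 457 in the clone. At 1.5-fold 2 of the 21 were higher in the clone and 5 lower, beside 25.6% and 15.2% of all genes. The neighbours of HOXD were singled out after their values were seen and lay on both sides of control there. EVX2, the homeobox gene beside HOXD13, was at 182 against 252 and ATP5MC3 at 144 against 158, while LNPK was at 1080 against 859, MTX2 at 252 against 208 and ATF2 at 1171 against 693. Among 60 other homeobox genes, 2 of 39 past the floor were at least 2-fold higher in ethanol, ZEB2 and ZEB1, and 0 lower, beside 2.63% and 2.44% of all genes. In acetaldehyde 1 of 39 was higher and 0 lower, beside 1.03% and 0.0536%. It was ZEB2, at 160 against 61.5, at least 2.28-fold higher against the floor, and ZEB1 was at 147 against 75.7. In the clone 2 of 49 were higher and 4 lower as measured, beside 14.7% and 5.83% of all genes, and 2 of those 4 were at least 2-fold lower against the floor. At 1.5-fold 2 were higher and 15 lower, beside 25.6% and 15.2%, and the median was -0.42, next to the -0.24 of the HOX members. DLX5, a homeobox gene of the skeleton and placode, was at 67.2 against 302, at least 3.29-fold lower against the floor. IRX5 was at 145 against 303, while SATB1 and HOPX were under the floor in the clone and at least 1.71-fold and 1.86-fold lower against it. Those higher were ZEB2 and ZEB1.

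**Figure D4:**
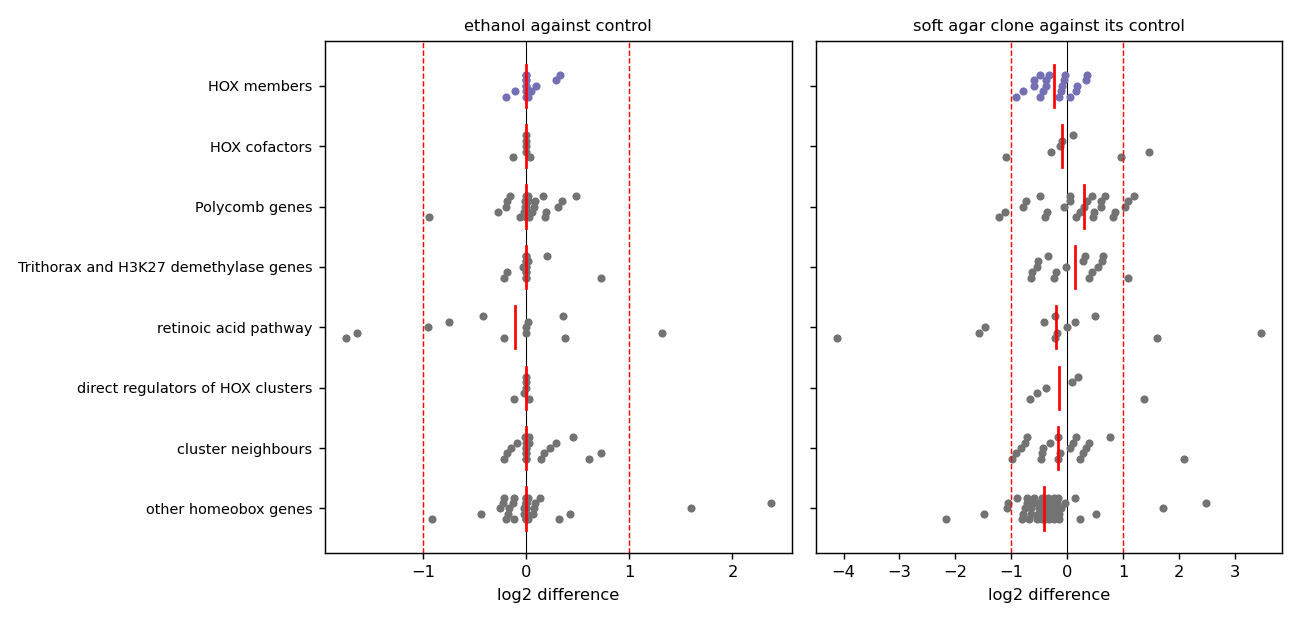
Log2 differences of the genes past the floor in the HOX members (purple) and in 7 related lists (grey), in ethanol against control (left) and in the clone against its control (right), with each list's median as a red bar and 2-fold as dashed lines. The HOX members stay inside 2-fold in both panels, while TGM2 of the retinoic acid genes reaches 3.47 in the clone; the lowest point there, CRABP2, is drawn at its measured value although the clone's intensity lies under the floor.

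Markers of breast epithelium and of other cell types were read in the same arrays. All 6 measured basal breast markers were above the floor in the untreated, ethanol and acetaldehyde cultures, and their summed intensity was 13847, 5669 and 13346. In the clone's control it was 28541 and in the clone 5337, with LAMB3 and CDH3 under the floor in the clone. Of 9 luminal markers 3 reached the floor in the untreated, ethanol and acetaldehyde cultures and 4 in the clone and its control, and ESR1 and PGR did so in no array. Fibroblast markers reached the floor for 3 of 10 genes in the untreated culture, 4 of 10 in ethanol, in acetaldehyde and in the clone's control, and 6 of 10 in the clone. In the clone 4 of those 6 were past 2-fold upward as measured, beside 14.7% of all genes, with a median of 1.51 on the log2 scale. COL3A1 was at 538 against 128 and COL1A1 at 687 against 310. FAP at 287 and DCN at 167, which passed the floor only through the clone, were at least 3.12-fold and 1.81-fold higher against it. DCN was also past 2-fold upward as measured in ethanol, at 88.1 against 31.4, or at least 1.25-fold. PDGFRB and COL1A2 were lower in the clone, at 103 against 136 and 123 against 142, and PDGFRA, LUM, THY1 and POSTN were under the floor in every array. Leukocyte markers reached it for 1 of 5 genes in each array, with PTPRC, CD3E, ITGAM and LYZ under it, and endothelial markers for 1 of 6, or 2 of 6 in the clone, where KDR was at 275 against 69.3, at least 2.99-fold higher, and PECAM1, VWF, CDH5 and TEK were under it. Adipocyte markers reached it for 1 of 4 genes in the first table, 1 of 5 in the clone's control and 2 of 5 in the clone, with 0 past 2-fold. Nervous tissue markers reached it for 2 of 4 in the first table and 3 of 4 in the second, and MAP2, a microtubule protein of neurons, was at 550 in the clone, at least 5.98-fold higher than its control. Beside the counts at the floor stand the shares of all genes given above, 60.6% to 61.9% by array. The part of these markers in the HOX values was not tested.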

How the data were processed

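The authors deposited linear intensity values made with RMA, per the submitters' processing notes, which give no version. They came in 2 tables of 33297 probes each, for 3 and 2 arrays of different designs, and differences were taken within a table only. Log2 of each intensity was taken, probes with exactly 1 symbol were named through each design's annotation (19181 and 19460 probes), and a gene with several such probes was taken from its brightest. Each of the 27 measured HOX genes had 1. A difference was counted where the brighter array reached the table's median, at 2-fold. The named genes are all measured members and up to 4 genes of each list by size; RARG, RBBP7, LNPK, MTX2, EVX2, ATF2, ATP5MC3 and the homeobox genes past the fourth lie outside that rule and were named after their values were seen. The members and lists were chosen with earlier results of these data known. Calculations ran in Python 3.11.15 with pandas 2.3.3 and were tested on simulated data. With 1 array per group, the number of arrays limits the precision. Alternatives covered the floor, fold, centring, normalisation and probes. A lowess correction (statsmodels 0.14.6, span 0.3), a background of genes in the members' range of brightness and the 1.5-fold count under each scaling were added after the data were seen.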

Additional observations from a re-analysis of the deposited data

Results flagged for a closer look

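The probe shared by HOXC4 and HOXC6 entered no comparison because it names several genes, and it carried a signal above the reference array. In the soft agar clone it was at 224 against 165 in the clone's control, a log2 difference of 0.44. In ethanol, where the annotation of that design adds HOXC5, it was at 140 against 130 in the untreated culture, a log2 difference of 0.11, and in acetaldehyde at 130. Which of the genes gave the signal was not tested.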

How the results depend on the processing

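Counts of members at least 2-fold from control stayed at 0 in the first table's 3 comparisons under each alternative that could be run, and so did the count of higher members in the clone. The count of lower members in the clone was 4 at 1.5-fold and 1 (HOXC10) with quantile normalisation again. A floor at the 75th percentile left no member in the first table and HOXC10 alone in the clone. Of 449 member differences recomputed, 407 moved by 0.1 or less on the log2 scale, but many of these could not move. Dropping the floor, changing the fold or averaging a gene's probes leaves a member's difference as it is, 64 values each. Centring left the first table's values unchanged, since its median over all probes was 0. In the clone, centring moved all 20 members by more than 0.1, and the lowess correction moved 17. Changes of sign numbered 11, each in the clone: 5 with centring, 5 with the lowess correction and 1 with quantile normalisation again. The members' median in the clone was -0.07 with centring and -0.11 where values under the floor were raised to it. Taking only genes in the members' range of brightness, 14.2% were at least 2-fold higher and 3.91% lower in the clone. No paired analysis was possible because each group has 1 array. The floor is not a measured background, and for members near it the arrays give little room to see a decrease.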
